A study of Mus musculus with 7 samples.

Results

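Of 49585 genes listed for MS-1 cells, 42 were already expressed in control cells and reached at least double that level in cells overexpressing lipoprotein lipase (LPL). MS-1 cells are an endothelial line of mouse pancreatic islets, and LPL hydrolyses the triglyceride of blood lipoproteins. The genes were chosen from the measured values themselves. Levels are given as CPM, the sense-orientation reads of a gene per 1000000 such reads of the library. A gene was taken when its mean over the 3 control libraries was at least 3 CPM and its mean over the 4 LPL overexpression libraries was at least 2 times as high. A total of 51 genes met both thresholds, and 9 of them (Gpnmb, Apoe, Sort1, Nrp2, Id2, Id3, Met, Ccnd2 and Bgn) were left out by the rule. Because the contrast between the groups chose the genes, their differences between groups are described here and not tested.

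The cells carried the genotype label LPL overexpression in 4 libraries and were wild-type controls in the other 3. Both were grown in DMEM, and total RNA was sequenced with a strand-specific kit. The labels do not say how LPL was introduced, of which species its sequence is, whether the cells are 1 clone or whether the libraries came from separate cultures, and no vector-only library is among those analysed. Counted reads numbered between 24328418 and 29210847 per library. All 42 genes were well above single reads, with at least 71 reads in each control library.

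Markers of endothelial cells were present in both groups and summed to between 8702 and 8930 CPM with LPL overexpression and to between 9884 and 10050 CPM in controls, although Sox17 had no read in either group and Cldn5 none with LPL overexpression. Markers that define pigment cells differed far more. All 16 of 16 were higher with LPL overexpression in edgeR's quasi-likelihood test, and their sum was between 1507 and 1577 CPM there, against 3.74 to 4.22 CPM in controls, where Tyr, Tyrp1, Dct, Mlana, Sox10, Oca2 and Mlph had no read. Of 15 tested neural crest and Schwann cell markers 11 were higher and 3 lower. Mbp, Cdh19, Sox9, Sox5 and Cadm1 were tested and had no read in controls. Ngfr, Tfap2b and Pou3f1 also had no control read but were too low to test, and Foxd3 and Gfra3 had no read in either group. The markers of this list summed to 243 to 259 CPM with LPL overexpression and to 225 to 234 CPM in controls. Nes made up most of this sum and was lower, at 187 ± 4.39 CPM with LPL overexpression, against 207 ± 4.83 CPM in controls. The other lower markers fell by larger factors. Gap43 was at 4.30 ± 0.555 CPM with LPL overexpression, against 10.1 ± 0.466 CPM in controls. Gfra1 was at 3.43 ± 0.287 CPM with LPL overexpression, against 6.29 ± 0.435 CPM in controls. Some markers were higher from near 0 in controls, such as Cadm1 at 9.26 ± 0.542 CPM with LPL overexpression. Erbb3 was at 8.38 ± 0.799 CPM with LPL overexpression, against 0.0848 ± 0.0535 CPM in controls. Of 9 tested fibroblast and mural cell markers 5 were higher and 1 lower, with a sum of 6529 to 6888 CPM with LPL overexpression and of 7351 to 7679 CPM in controls. Vim, which endothelial cells also express, made up nearly all of that sum and was the lower one, at 6678 ± 147 CPM with LPL overexpression, against 7533 ± 179 CPM in controls, while Col1a2, Postn, Cspg4, Col3a1 and Notch3 were higher, each under 5 CPM. Epithelial and exocrine markers (4 tested, 1 higher, 2 lower) and macrophage and blood markers (3 tested, 1 higher, 1 lower) were mostly too low to test. In bulk RNA a change in the number of cells of a type and a change in the RNA per cell cannot be told apart, and the part of the pigment cell markers in the results that follow was not tested.

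None of the 16 markers that define pigment cells is among the 42 genes. The threshold of 3 CPM in controls fixes this, since all 16 were below it. The highest of them in controls was Mitf, at 2.37 ± 0.438 CPM, against 44.9 ± 0.973 CPM with LPL overexpression. Rab27a and Tbx2, targets of the transcription factor MITF that are also expressed outside pigment cells, are among the 42 genes. So are Irgm2, an interferon-stimulated gene, and Irf1, of the acute STAT and cytokine response. Pigment cells make melanin in melanosomes, acidic organelles of the lysosome family. Melanosomes are carried along actin by the small GTPase Rab27a with myosin, and MITF directs the genes of the pigment cell programme. Interferons and related cytokines act through STAT proteins, which bind promoters at a palindromic site, and through IRF proteins, which bind repeats of a GAAA core.

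**Figure D1:**
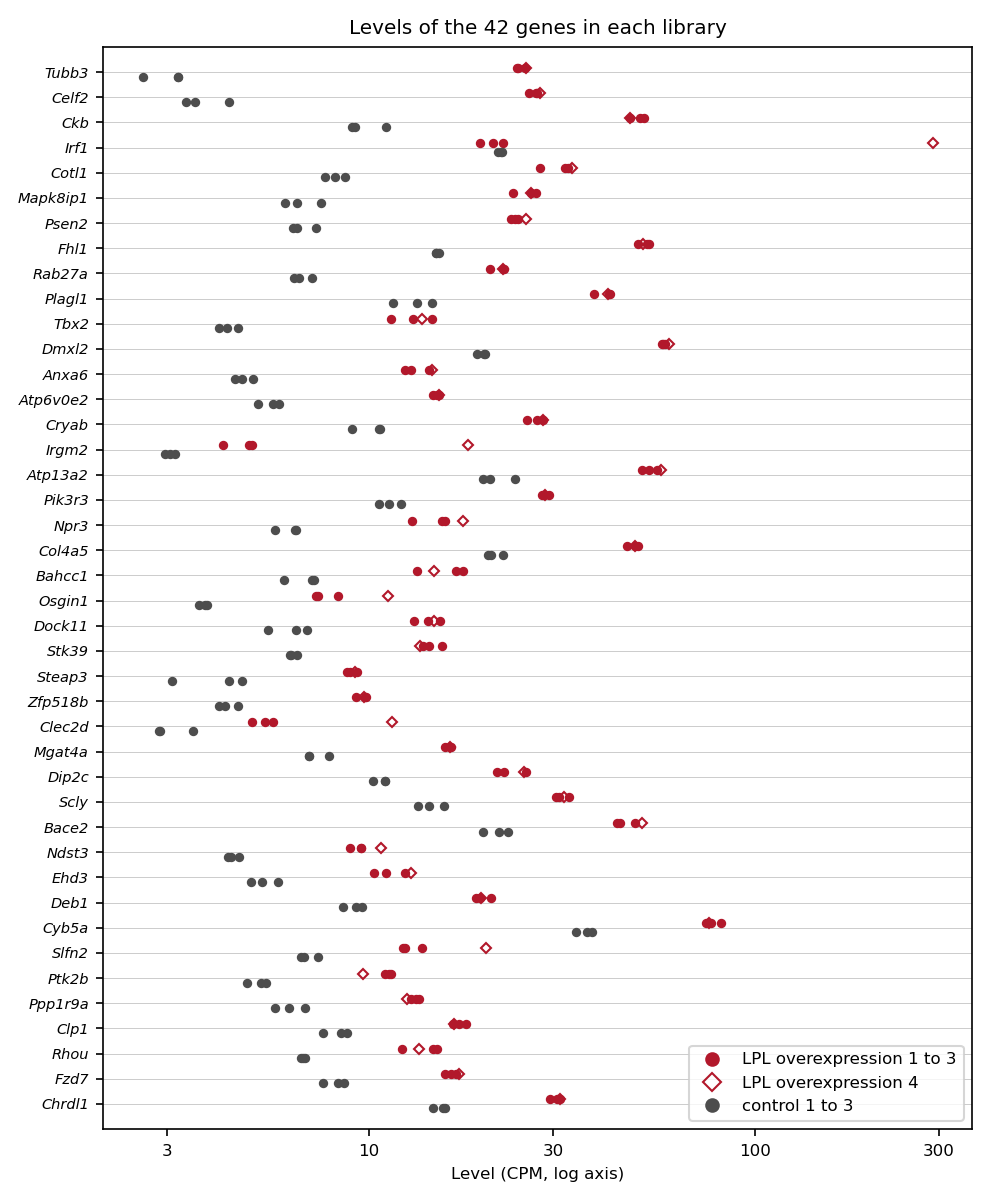
Level of each of the 42 genes (rows, ordered by the ratio of means) in CPM on a log axis, in the 4 LPL overexpression libraries (red, with library 4 as an open diamond) and the 3 control libraries (grey); each symbol is 1 library. In 41 of the 42 genes every red symbol lies to the right of every grey one. In Irf1 the open diamond is at 289 CPM, and the other red symbols lie among or just beside the grey ones.

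The increases were mostly modest and alike in the 4 LPL overexpression libraries. The ratio of means had a median of 2.29, with 24 genes under 2.5, 7 genes from there to under 3, 7 genes between 3 and 4, and 4 genes above 4. The lowest LPL overexpression library lay above the highest control in 41 of 42 genes, and this held for 29.7% of the 13639 genes tested over the whole table. In 30 of the 42, each of the 4 LPL overexpression libraries was by itself at least 2 times the control mean, which held for 0.363% of the 10470 genes with a control mean of at least 3 CPM. A ratio of at least 2 was itself found in 0.487% of those 10470 genes. Since the rule used this contrast, nothing is read from these counts. Without LPL overexpression library 4 the rule gave 36 genes, and in 31 of them each remaining LPL overexpression library was at least 2 times the control mean. The plot of levels by library has 5 genes, Irf1, Irgm2, Clec2d, Slfn2 and Osgin1, in which LPL overexpression library 4 exceeded the next highest of the 4 by the largest factors, and these are taken up separately. The 42 genes together made up 996 to 1341 CPM in the LPL overexpression libraries and 399.9 to 404 CPM in the controls, or 975 to 1052 and 378 to 382 CPM with Irf1 left out.

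Genes of the cytoskeleton and its regulators included the largest ratio. Tubb3 encodes class III beta-tubulin, best known from neurons, and lies on the plus strand of chromosome 8, 123411424 to 123422015 (mm10, as all positions here). It had 24.3, 25.4, 24.2 and 25.5 CPM in LPL overexpression libraries 1 to 4, against 2.59, 3.20 and 3.21 CPM in controls 1 to 3, a ratio of 8.28. The groups were far apart, with a coefficient of variation of 2.61% with LPL overexpression and 11.8% in controls. The control mean of Tubb3, 3.00 CPM, was at the threshold. Without control 2 or control 3 the gene left the set, although its ratio was then 8.57 or 8.58. Mc1r, the gene of the melanocortin receptor of pigment cells, ends 680 bases upstream of Tubb3 on the same strand, and it stood at 29.2 ± 0.644 CPM (SD, n = 4) with LPL overexpression and 0.196 ± 0.0465 CPM (SD, n = 3) in controls. Whether transcripts that run through both genes add to the Tubb3 count was not tested. The promoter window of Tubb3 starts between these genes and runs into Tubb3 as the deposited positions place it. It is shown without capitals because none of the 5 motifs searched is in it (RefSeq, GRCm38.p6, chr8:123411303-123411602, plus strand, 250 bases before to 50 after the annotated start).
Tubb3: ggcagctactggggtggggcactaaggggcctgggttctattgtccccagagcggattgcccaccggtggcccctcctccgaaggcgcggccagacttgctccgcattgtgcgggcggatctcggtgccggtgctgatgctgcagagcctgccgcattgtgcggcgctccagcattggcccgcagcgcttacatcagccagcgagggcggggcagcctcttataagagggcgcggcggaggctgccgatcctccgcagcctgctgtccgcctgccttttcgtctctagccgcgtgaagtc

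Cotl1 encodes coactosin-like protein, which binds actin filaments. Its levels were 32.8, 27.7, 32.2 and 33.5 CPM in LPL overexpression libraries 1 to 4, against 8.14, 8.65 and 7.69 CPM in controls 1 to 3, a ratio of 3.87. LPL overexpression library 2 was the lowest of the 4 and still more than 3 times the highest control. Fhl1, a LIM-domain protein gene of muscle and other cells on the X chromosome, had 52.7, 53.3, 49.9 and 51.3 CPM in LPL overexpression libraries 1 to 4, against 15.2, 14.9 and 14.9 CPM in controls 1 to 3, a ratio of 3.45. The 3 regulators in this group were closer to the threshold. Dock11, a guanine nucleotide exchange factor for Cdc42, averaged 14.3 ± 0.934 CPM with LPL overexpression, against 6.28 ± 0.736 CPM in controls (SD, n = 4 and 3, as in all means ± SD that follow). Rhou, an atypical small GTPase gene, averaged 13.8 ± 1.28 CPM with LPL overexpression, against 6.74 ± 0.0779 CPM in controls. Ppp1r9a, the gene of neurabin, which joins actin to protein phosphatase 1, averaged 13.02 ± 0.396 CPM with LPL overexpression, against 6.24 ± 0.569 CPM in controls.

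Genes of membrane traffic and acidic organelles formed a group of 7, with ratios between 2.18 and 3.27. Rab27a, the GTPase that tethers melanosomes and secretory vesicles to their motors, lies on chromosome 9, 73044854 to 73097629. It had 22.2, 20.5, 22.4 and 22.2 CPM in LPL overexpression libraries 1 to 4, against 6.57, 7.12 and 6.37 CPM in controls 1 to 3. All 4 LPL overexpression libraries were near a ratio of 3.27, with library 2 slightly below the rest. One of the pair of RefSeq promoter windows of Rab27a holds CACGTG, the palindromic E-box that MITF and related factors can bind, which is why it is shown here beside the window of Psen2 that holds the same letters (capitals mark the E-box; Rab27a chr9:73063898-73064197, plus strand; Psen2 chr1:180245901-180246200, minus strand; both GRCm38.p6).
Rab27a: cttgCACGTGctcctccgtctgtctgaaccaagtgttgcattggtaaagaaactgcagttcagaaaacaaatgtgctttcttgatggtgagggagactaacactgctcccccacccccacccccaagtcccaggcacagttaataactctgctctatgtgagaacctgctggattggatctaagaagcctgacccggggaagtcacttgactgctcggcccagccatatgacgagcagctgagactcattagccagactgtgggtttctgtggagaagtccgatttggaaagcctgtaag
Psen2: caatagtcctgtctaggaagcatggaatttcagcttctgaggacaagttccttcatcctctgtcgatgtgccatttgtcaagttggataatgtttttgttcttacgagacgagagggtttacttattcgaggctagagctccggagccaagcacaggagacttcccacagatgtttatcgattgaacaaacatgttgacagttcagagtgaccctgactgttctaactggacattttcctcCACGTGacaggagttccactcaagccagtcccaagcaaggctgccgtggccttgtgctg

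Dmxl2 encodes rabconnectin-3 alpha, a regulator of the vesicular proton pump. It had 58.5, 57.5, 58.01 and 59.98 CPM, against 20.01, 19.9 and 19.05 CPM in the controls. Atp6v0e2, a membrane subunit of that pump, had 15.2, 15.03, 14.7 and 15.2 CPM, against 5.62, 5.84 and 5.17 CPM in the controls. Both genes varied little among the LPL overexpression libraries, with coefficients of variation of 1.82% and 1.69%. Atp13a2, which encodes a lysosomal polyamine transporter, had 55.9, 51.04, 53.1 and 57.1 CPM, against 19.8, 20.6 and 23.8 CPM in the controls. Anxa6, a calcium-dependent membrane-binding annexin of endosomes, had 14.3, 12.8, 12.4 and 14.5 CPM, against 5.003, 4.48 and 4.68 CPM in the controls. Neither showed any overlap between the groups. Ehd3, an ATPase of endosomal recycling, averaged 11.6 ± 1.17 CPM with LPL overexpression, against 5.34 ± 0.434 CPM in controls, while Steap3, an endosomal ferrireductase of iron uptake, averaged 9.05 ± 0.263 CPM with LPL overexpression, against 4.04 ± 0.834 CPM in controls. Control library 3 was the lowest for Steap3, at 3.09 CPM, and its coefficient of variation of 20.7% in controls was the highest of the 42 genes.

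Both proteases of the secretase type among the 42 genes process membrane proteins. Psen2 encodes presenilin 2, a catalytic subunit of gamma-secretase, and had 23.96, 24.3, 23.4 and 25.5 CPM, against 6.50, 6.37 and 7.28 CPM in the controls. Bace2 encodes a beta-secretase known to cleave the melanosome fibril protein PMEL in pigment cells, and had 44.7, 43.9, 48.8 and 51.2 CPM, against 19.8, 22.95 and 21.7 CPM in the controls. The ratios were 3.61 for Psen2 and 2.19 for Bace2, and every LPL overexpression library was above every control for both. On the TPM scale, which divides reads by exon length and scales each library to one total, Bace2 was the more abundant in each group. It was at 41.5 ± 3.17 TPM with LPL overexpression and 19.1 ± 1.35 TPM in controls, and Psen2 was at 18.4 ± 0.707 TPM with LPL overexpression and 5.14 ± 0.360 TPM in controls.

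Among nuclear and RNA-binding proteins, Celf2 came second of all 42 genes. Celf2, a regulator of splicing and mRNA stability on chromosome 2, 6539694 to 7509563, had 27.1, 26.1, 27.2 and 27.7 CPM in LPL overexpression libraries 1 to 4, against 4.35, 3.34 and 3.55 CPM in controls 1 to 3. Its exons sum to 25884 bases, the longest of the 42, and its level per length was the lowest in controls, at 3.43 ± 0.1002 TPM with LPL overexpression and 0.480 ± 0.0701 TPM in controls. Plagl1, an imprinted zinc finger transcription factor gene, had 41.8, 38.3, 42.1 and 41.7 CPM, against 14.5, 13.3 and 11.5 CPM in the controls. Reads in the opposite orientation made up 2.83% of its oriented reads with LPL overexpression and 2.71% in controls. Tbx2, a T-box repressor expressed in the melanocyte lineage and reported as a target of MITF, had 14.6, 11.4, 13.01 and 13.7 CPM, against 4.09, 4.27 and 4.56 CPM in the controls. Its ratio was 3.06, with no overlap between the groups. Tbx4, its neighbour on the same strand 44474 bases away, had no read in controls and 2.20 ± 0.265 CPM with LPL overexpression.

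The other 4 nuclear genes had ratios between 2.06 and 2.30. Bahcc1, a chromatin reader with a BAH domain, averaged 15.6 ± 1.91 CPM with LPL overexpression, against 6.78 ± 0.647 CPM in controls. Zfp518b, a zinc finger protein gene, averaged 9.63 ± 0.258 CPM with LPL overexpression, against 4.30 ± 0.243 CPM in controls. Clp1, an RNA kinase of tRNA splicing and mRNA 3' end formation, averaged 17.02 ± 0.588 CPM with LPL overexpression, against 8.28 ± 0.594 CPM in controls. Deb1, named Ss18l2 in GENCODE vM21 and related to the chromatin remodelling subunit SS18, averaged 19.6 ± 0.732 CPM with LPL overexpression, against 9.13 ± 0.505 CPM in controls.

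Signalling genes numbered 7. Mapk8ip1 encodes JIP1, a scaffold of the JNK pathway, and had 27.2, 23.6, 26.3 and 26.3 CPM, against 6.06, 7.51 and 6.49 CPM in the controls. Pik3r3, a regulatory subunit of phosphoinositide 3-kinase, had 28.1, 28.4, 29.2 and 28.5 CPM, against 11.3, 12.1 and 10.6 CPM in the controls. Npr3 encodes the clearance receptor of natriuretic peptides, expressed by endothelium, and had 15.8, 15.4, 12.9 and 17.5 CPM, against 6.46, 6.44 and 5.70 CPM in the controls. In these 3 genes the lowest LPL overexpression library was above the highest control, and Npr3 had the widest spread, with library 3 the lowest and library 4 the highest. Stk39, the SPAK kinase of ion transport, averaged 14.3 ± 0.850 CPM with LPL overexpression, against 6.33 ± 0.137 CPM in controls. Ptk2b, the calcium-activated kinase PYK2, averaged 10.8 ± 0.793 CPM with LPL overexpression, against 5.16 ± 0.301 CPM in controls, and LPL overexpression library 4 was its lowest, at 9.66 CPM. Fzd7, a Wnt receptor gene, and Chrdl1, a secreted antagonist of BMP, were at the edge of the rule with ratios of 2.01 and 2.003. Fzd7 averaged 16.5 ± 0.570 CPM with LPL overexpression, against 8.19 ± 0.524 CPM in controls, and Chrdl1 averaged 30.6 ± 0.863 CPM with LPL overexpression, against 15.3 ± 0.578 CPM in controls.

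Enzymes of metabolism and of glycan synthesis numbered 5. Ckb, the brain-type creatine kinase that buffers ATP, lies on chromosome 12, 111669355 to 111672338 and had 51.5, 47.6, 50.4 and 47.4 CPM in LPL overexpression libraries 1 to 4, against 9.06, 9.18 and 11.1 CPM in controls 1 to 3. Its ratio of 5.04 was the third largest, and its level per length was among the highest of the 42, at 109.5 ± 4.62 TPM with LPL overexpression and 21.9 ± 2.42 TPM in controls. Cyb5a, the electron donor cytochrome b5 that serves desaturases and cytochromes P450, had 76.99, 74.7, 81.8 and 76.2 CPM, against 34.3, 37.8 and 36.8 CPM in the controls. It was the gene with the highest control level of the 42, in CPM and per length (119 ± 4.89 TPM with LPL overexpression and 56.2 ± 2.51 TPM in controls). Scly, selenocysteine lyase, averaged 31.7 ± 1.11 CPM with LPL overexpression, against 14.4 ± 1.11 CPM in controls. Mgat4a, an enzyme of N-glycan branching, averaged 16.1 ± 0.268 CPM with LPL overexpression, against 7.28 ± 0.526 CPM in controls. Ndst3, which sulfates heparan sulfate, the glycan on which LPL is held at the cell surface, averaged 9.68 ± 0.771 CPM with LPL overexpression, against 4.43 ± 0.157 CPM in controls.

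Col4a5, a chain of basement membrane collagen IV, had 49.9, 48.8, 46.7 and 48.8 CPM, against 22.3, 20.3 and 20.7 CPM in the controls, a ratio of 2.30. Dip2c, a gene of the disco-interacting protein family, averaged 23.6 ± 2.01 CPM with LPL overexpression, against 10.7 ± 0.439 CPM in controls. Neither gene had overlapping groups. Cryab, the small heat shock protein alpha-B crystallin, had 27.2, 28.3, 25.7 and 28.3 CPM, against 10.6, 10.7 and 9.01 CPM in the controls, a ratio of 2.71. Hspb2, the small heat shock gene that overlaps Cryab on the opposite strand, was at 1.79 ± 0.359 CPM with LPL overexpression and 0.0851 ± 0.0188 CPM in controls. Reads in the opposite orientation were 3.29% of the oriented reads over Cryab with LPL overexpression and 0.599% in controls, the largest share among the 42 genes with LPL overexpression. The counts used are strand-specific, so these reads are not part of the Cryab level.

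In a last group of 5 genes LPL overexpression library 4 exceeded the next highest library by a larger factor than in any other of the 42. Irf1, the interferon regulatory factor on chromosome 11, 53770014 to 53778374, had 19.4, 20.95, 22.2 and 289 CPM in LPL overexpression libraries 1 to 4, against 21.9, 22.1 and 21.5 CPM in controls 1 to 3. The first 3 LPL overexpression libraries were at about the control level, so the group ratio of 4.02 came from 1 library, and it was 0.954 without library 4. Irgm2, an interferon-inducible GTPase, had 4.89, 4.18, 4.98 and 18.01 CPM, against 3.14, 2.95 and 3.05 CPM in the controls. Clec2d, a lectin-like ligand of natural killer receptors, had 5.38, 4.96, 5.62 and 11.5 CPM, against 2.85, 3.49 and 2.87 CPM in the controls. In both genes the first 3 LPL overexpression libraries were also above all controls, but by less, and without library 4 the ratios were 1.54 for Irgm2 and 1.74 for Clec2d. Slfn2, a Schlafen gene of immune cell quiescence, averaged 14.6 ± 3.74 CPM with LPL overexpression, against 6.93 ± 0.373 CPM in controls, with 20.2 CPM in library 4 and 12.3 to 13.7 CPM in the other 3, and its ratio was 1.84 without library 4. Osgin1, a gene of the oxidative stress response, had 7.36, 8.32, 7.31 and 11.2 CPM, against 3.76, 3.63 and 3.81 CPM in the controls, and it kept a ratio of 2.05 without library 4. Irgm2 overlaps Igtp on the same strand, and both, like Slfn2, belong to families with similar copies, so how reads were divided among the copies is uncertain.

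**Figure D2:**
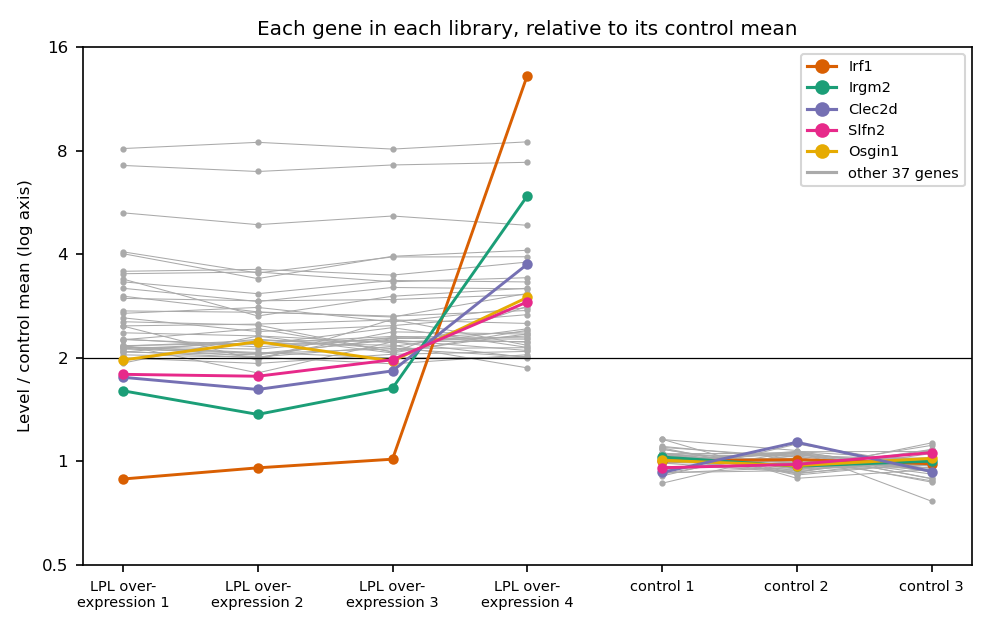
Level of each of the 42 genes divided by its own control mean (log axis) in LPL overexpression libraries 1 to 4 and controls 1 to 3; lines join the libraries of 1 group, and the horizontal line marks a ratio of 2. The 5 coloured genes are highest in LPL overexpression library 4, where Irf1 reaches 289 CPM against a control mean of 21.9 CPM, while most grey lines are nearly flat across the 4 libraries.

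Promoter windows of 3 of the genes raised in library 4 are shown because Irf1 and Irgm2 were the only ones among the 33 genes with a window that held the STAT-type palindrome TTCNNNGAA, and Irgm2 and Clec2d the only ones with the IRF-type repeat, GAAA followed by any 2 bases and GAAA again (capitals mark these matches; Irf1 chr11:53769764-53770063, Irgm2 chr11:58214727-58215026 and Clec2d chr6:129180365-129180664, all on the plus strand, GRCm38.p6).
Irf1: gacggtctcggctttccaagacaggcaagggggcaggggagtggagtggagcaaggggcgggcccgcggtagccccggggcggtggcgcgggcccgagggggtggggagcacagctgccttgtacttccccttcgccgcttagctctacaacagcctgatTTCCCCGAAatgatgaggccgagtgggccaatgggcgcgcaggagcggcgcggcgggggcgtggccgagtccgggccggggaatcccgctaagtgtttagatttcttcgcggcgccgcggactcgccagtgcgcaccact
Irgm2: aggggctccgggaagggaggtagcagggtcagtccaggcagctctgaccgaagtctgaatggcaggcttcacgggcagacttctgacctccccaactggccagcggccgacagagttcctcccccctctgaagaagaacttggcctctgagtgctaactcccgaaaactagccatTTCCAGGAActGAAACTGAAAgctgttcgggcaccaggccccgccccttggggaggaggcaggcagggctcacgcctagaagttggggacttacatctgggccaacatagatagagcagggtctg
Clec2d: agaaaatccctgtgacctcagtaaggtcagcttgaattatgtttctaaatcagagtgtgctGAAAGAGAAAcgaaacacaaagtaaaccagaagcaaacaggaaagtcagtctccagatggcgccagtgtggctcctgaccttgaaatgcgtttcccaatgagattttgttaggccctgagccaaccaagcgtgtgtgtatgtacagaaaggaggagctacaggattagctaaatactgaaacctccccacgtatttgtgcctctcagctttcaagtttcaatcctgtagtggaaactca
The palindrome begins at position -90 from the annotated start of Irf1 and at -75 in Irgm2. The repeat begins at -64 in Irgm2 and at -189 in Clec2d. Neither motif is in the windows of Slfn2 and Osgin1, the other genes raised in library 4, or in the other RefSeq window of Irf1, which starts at base 53770223.

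RefSeq windows of 250 bases before to 50 after the annotated start were found for 33 of the 42 genes, 49 windows in all, with Deb1 looked up as Ss18l2. Both strands were searched, and the share of windows is given beside that of the 10400 windows of genes with at least 3 CPM in controls and of all 32851 windows. TTCNNNGAA was in 4.08% of the windows of the 42 genes, against 6.66% and 8.30%. The GAAA repeat was in 4.08%, against 2.85% and 3.44%. The 4 matches to these motifs lay in 3 windows. CACGTG was in 8.16%, in Plagl1, Ppp1r9a, Psen2 and Rab27a, against 10.4% and 7.15%. CATGTG, the other E-box that MITF can bind, was in 10.2%, in Fhl1, Ndst3, Scly and Slfn2, against 8% and 14.2%. TGANTCA, the AP-1 motif, was in 6.12%, in Celf2, Mgat4a and Osgin1, against 4.91% and 7.81%. A match is a description of the letters and not evidence of binding.

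**Figure D3:**
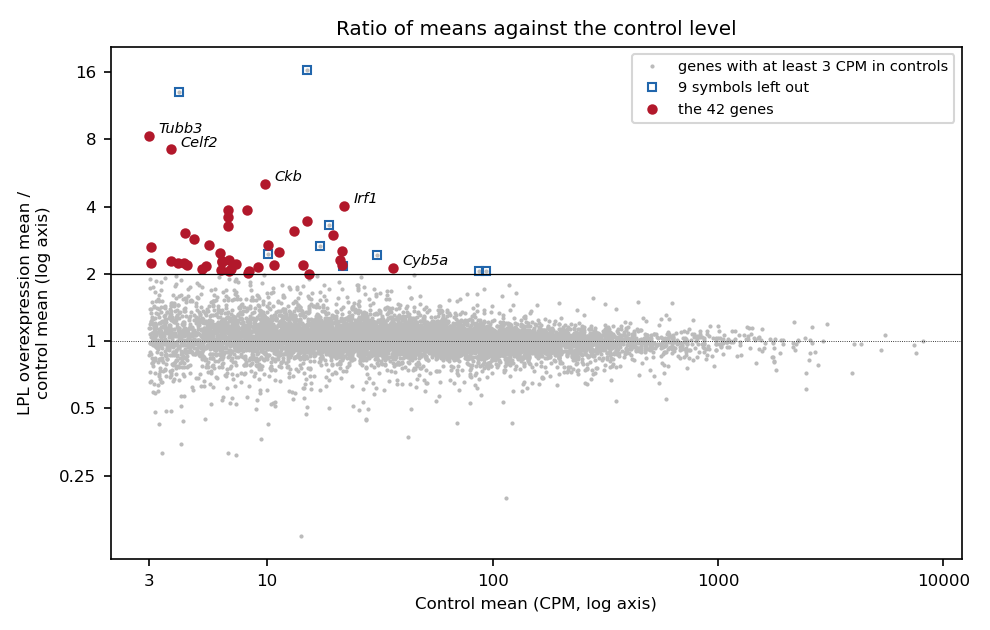
Ratio of the LPL overexpression mean to the control mean against the control mean (both log axes) for genes with at least 3 CPM in controls (grey), the 42 genes (red) and the 9 symbols left out (blue squares); each symbol is 1 gene and the solid line marks a ratio of 2. The red points lie between 3.00 and 36.3 CPM in controls, at the low end of the range.

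The 42 genes were weakly to moderately expressed in controls. Their control means had a median of 6.76 CPM, against 40.99 CPM over the 10470 genes with at least 3 CPM, and all 42 were below that median. With those genes put in 4 bins of equal size by control level, a ratio of at least 2 was found in 39 of 2618 genes in the lowest bin (under 16.9 CPM), 10 of 2617 in the second, and 1 each in the upper bins. A ratio of 0.5 or less was found in 15, 4, 3 and 2 genes of these bins, lowest to highest. Of the 42 genes, 36 were in the lowest bin and 6 in the second. The gain in level, LPL overexpression mean minus control mean, had a median of 9.997 CPM and ranged from 3.79 CPM in Clec2d to 66.1 CPM in Irf1. All 42 genes are protein-coding in GENCODE vM21, and their median exonic length of 4432 bases was close to the 4294 bases of genes with at least 3 CPM.

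The median spread among libraries was somewhat lower than over all genes of the same range of control levels with LPL overexpression, and higher in controls. The coefficient of variation over the 4 LPL overexpression libraries had a median of 4.43% in the 42 genes and of 5.12% in the 4823 genes between 3 CPM and the highest control mean of the 42. In controls the medians were 6.28% and 4.69%. The genes compared were not matched in level within that range. In 7 of the 42 genes 1 LPL overexpression library stood apart from the other 3 by Dixon's criterion, against 5.14% of the genes with at least 3 CPM. Library 4 was the high one in 3 of these, Irf1, Irgm2 and Clec2d, and it was apart and high in 0.821% of genes with at least 3 CPM. A mean over 4 libraries admits a gene that 1 library raises, so the rule itself favours such genes.

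By position, the 42 genes lay on 18 chromosomes, with 6 on chromosome 11 and 4 on X. Within 1 Mb of one another were Tubb3 and Rhou, 231914 bases apart, and Cotl1 and Osgin1, 362966 bases apart, all on chromosome 8. Of the 42, 5 (11.9%) lay within 100 kb of a gene that was under 0.1 CPM in controls and at 1 CPM or more with LPL overexpression, against 3.68% of the genes with at least 3 CPM. These were Tbx2 (near Tbx4), Cryab (Hspb2), Atp13a2 (Padi2), Scly (Klhl30) and Deb1 (Ccdc13). Mc1r, beside Tubb3, was above that limit in controls. The contrast between the groups chose both the 42 genes and these neighbours. As 5 genes are also few, nothing is read from these shares. 

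Of the 42 genes, 8 belong to lists of pathways and markers drawn up with earlier results of these data known, and the other genes of those lists show how far each gene's change was shared. Over all 13639 genes tested by edgeR's quasi-likelihood test, 43.2% were called at an adjusted p under 0.05, made up of 21.9% higher and 21.3% lower, and the median log2 fold change was 0.0024. Higher genes were 50.7% of those called, or 61.3% on TPM values. Of the 42 genes, 39 were called higher, which the rule largely fixes, and Irf1, Irgm2 and Clec2d were not. Without LPL overexpression library 4, Irgm2 and Clec2d were also called and 41 were called in all. Slfn2 was not called when any 1 of the 3 controls was left out, which gave 38, and DESeq2 and limma on TPM each gave 40, with Clec2d called.

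Of 26 tested MITF targets that are also expressed outside pigment cells, 16 were higher and 5 lower, with a median log2 fold change of 0.18. Rab27a and Tbx2 belong to this list. Among the other 24, Gpnmb, a melanosome and lysosome glycoprotein gene left out by the rule, was at 244 ± 11.9 CPM with LPL overexpression, against 14.98 ± 0.340 CPM in controls. Myo5a, the myosin motor that carries Rab27a-bound melanosomes, was at 229 ± 0.639 CPM with LPL overexpression, against 158 ± 3.74 CPM in controls (edgeR, log2 fold change 0.50, SE 0.03, adjusted p = 7.7e-23). Rab32, a GTPase of melanosome biogenesis, was at 46.8 ± 2.07 CPM with LPL overexpression, against 26.8 ± 1.28 CPM in controls (edgeR, log2 fold change 0.77, SE 0.04, adjusted p = 5.39e-21). In both, all 4 LPL overexpression libraries were above all controls, short of a ratio of 2.

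Of 44 tested interferon-stimulated genes, 33 were higher and 0 lower, with a median of 0.60, and Irgm2 was in this list. Without LPL overexpression library 4 the counts were 35 higher and 0 lower. Ifi27 was at 57.3 ± 2.07 CPM with LPL overexpression, against 34.2 ± 1.36 CPM in controls (edgeR, log2 fold change 0.71, SE 0.04, adjusted p = 1.88e-20). Bst2, the antiviral tetherin, was at 167 ± 1.64 CPM with LPL overexpression, against 134 ± 1.32 CPM in controls (edgeR, log2 fold change 0.28, SE 0.03, adjusted p = 3.83e-13). Ifit1, an RNA-binding antiviral protein gene, was at 18.6 ± 0.840 CPM with LPL overexpression, against 11.8 ± 0.396 CPM in controls (edgeR, log2 fold change 0.62, SE 0.06, adjusted p = 1.75e-12). Of 24 genes of the acute STAT and cytokine response, Irf1 among them, 8 were higher and 2 lower, with a median of 0.26, and without library 4 they were 9 and 5. Stat3, a central transcription factor of that response, was at 74.6 ± 2.47 CPM with LPL overexpression, against 42.5 ± 0.700 CPM in controls (edgeR, log2 fold change 0.77, SE 0.04, adjusted p = 1.01e-23). Il4ra, a cytokine receptor gene, was at 23.6 ± 2.16 CPM with LPL overexpression, against 13.5 ± 0.414 CPM in controls (edgeR, log2 fold change 0.76, SE 0.06, adjusted p = 1.26e-14). Osmr, the oncostatin M receptor gene, was at 33.95 ± 0.638 CPM with LPL overexpression, against 25.4 ± 1.16 CPM in controls (edgeR, log2 fold change 0.38, SE 0.04, adjusted p = 2.02e-10). Socs3, a STAT-induced inhibitor, was not called but is named because it shared the pattern of Irf1. It had 40.2 CPM in library 4, 11.1 to 12.8 CPM in the other 3 and a control mean of 14.3 CPM.

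Like the lists of MITF targets and of the acute STAT and cytokine response, the remaining lists had genes in both directions. Of 18 tested NRF2 antioxidant genes 9 were higher and 6 lower, with a median of 0.09. Beside Osgin1, Nqo1, a quinone reductase gene, was lower at 81.9 ± 2.69 CPM with LPL overexpression, against 113 ± 3.88 CPM in controls (edgeR, log2 fold change -0.50, SE 0.03, adjusted p = 4.45e-19). The glutathione transferase gene Gstm1 was higher at 48.6 ± 1.57 CPM with LPL overexpression, against 35.1 ± 2.66 CPM in controls (edgeR, log2 fold change 0.43, SE 0.04, adjusted p = 7.82e-12). Another transferase gene, Gstp1, was higher at 74.1 ± 2.27 CPM with LPL overexpression, against 57.3 ± 0.374 CPM in controls; both transferases have near-identical relatives. Of 15 tested neuronal and axon genes 6 were higher and 5 lower, with a median of 0.21. Beside Tubb3, the vesicle protein gene Syt4 was at 54.5 ± 0.971 CPM with LPL overexpression, against 0.425 ± 0.126 CPM in controls. The neurofilament gene Nefl was lower at 314 ± 12.5 CPM with LPL overexpression, against 444 ± 6.74 CPM in controls (edgeR, log2 fold change -0.54, SE 0.03, adjusted p = 1.63e-23). Gpm6a, a membrane glycoprotein gene of neurons, had no control read and 3.13 ± 0.587 CPM with LPL overexpression, at least 85.6-fold higher against the floor of 3 reads over the control group.

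Of 14 tested imprinted genes 3 were higher and 6 lower, with a median of -0.07. Beside Plagl1, Peg10, a retrotransposon-derived gene, was higher at 27.1 ± 2.38 CPM with LPL overexpression, against 2.74 ± 0.677 CPM in controls (edgeR, log2 fold change 3.26, SE 0.11, adjusted p = 8.95e-16). Mest was lower at 178 ± 5.44 CPM with LPL overexpression, against 240.2 ± 10.7 CPM in controls (edgeR, log2 fold change -0.47, SE 0.03, adjusted p = 1.36e-18). Grb10, an adaptor that inhibits insulin receptor signalling, was lower at 76.3 ± 2.06 CPM with LPL overexpression, against 96.2 ± 2.18 CPM in controls. Of 17 tested S100 and annexin genes 4 were higher and 10 lower, with a median of -0.09. Beside Anxa6, S100b was higher at 2.66 ± 0.369 CPM with LPL overexpression, against 0.0859 ± 0.0776 CPM in controls. Anxa1 was lower at 366 ± 9.68 CPM with LPL overexpression, against 459 ± 10.01 CPM in controls (edgeR, log2 fold change -0.37, SE 0.03, adjusted p = 7.12e-18). S100a13 was lower at 65.9 ± 2.57 CPM with LPL overexpression, against 89.6 ± 1.77 CPM in controls. The pigment cell markers differed between the same groups, at 1507 to 1577 CPM in the 4 LPL overexpression libraries and at 3.74 to 4.22 CPM in controls. Their part in the changes of these lists was not tested.

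**Figure D4:**
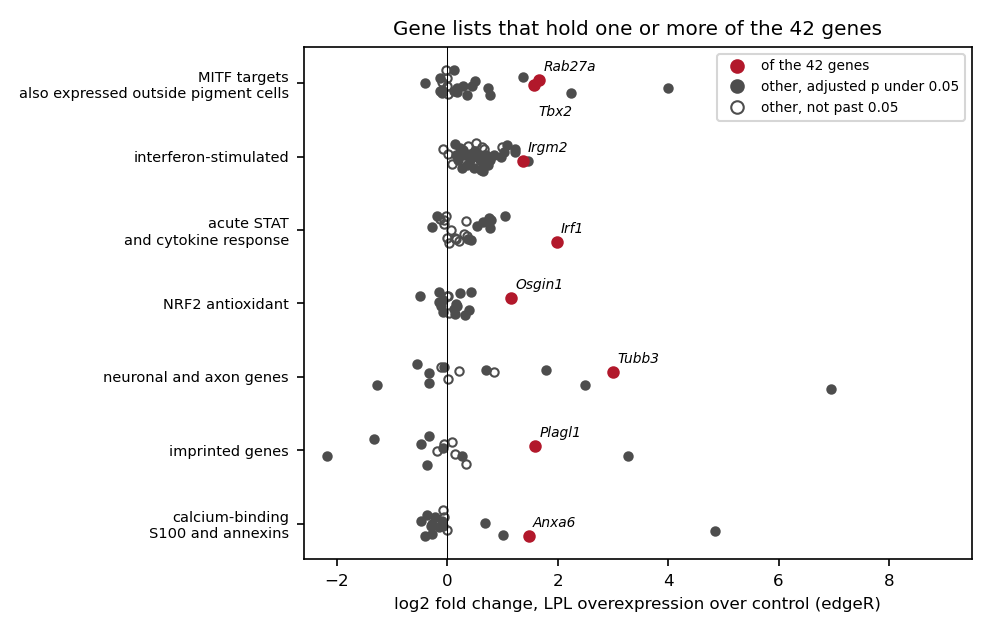
Log2 fold change of LPL overexpression over control in edgeR for the tested genes of the 7 lists that hold at least 1 of the 42 genes (red), with filled grey circles for other genes past an adjusted p of 0.05 and open ones for the rest; genes with 3 or fewer control reads are not drawn. Interferon-stimulated genes lie mostly to the right of 0 (33 of 44 higher), and S100 and annexin genes mostly to the left (10 of 17 lower).

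The 15 lists without any of the 42 genes included lysosomal genes, of which 12 were higher and 2 lower of 29 tested, matrix genes (13 and 10 of 35), genes of the ATF4 and unfolded protein responses (12 and 2 of 27), receptor kinase and MAPK feedback genes (11 and 6 of 26) and p53 targets (2 and 7 of 20). Immediate early genes (4 and 6 of 19), TGF-beta and BMP targets (5 and 4 of 16), Wnt targets (6 and 5 of 15) and enzymes of glycolipid and sphingolipid metabolism (7 and 5 of 13) were mixed. Of 23 tested endothelial identity genes 3 were higher and 16 lower, and none of the 42 genes was in that list. The marker lists of pigment cells, neural crest and Schwann cells, fibroblast and mural cells, epithelial and exocrine cells, and macrophage and blood cells held none either. For the pigment cell list the threshold on the control level fixed this.

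The thresholds cut through a continuous range of values. Just inside the ratio of 2 were Chrdl1 at 2.00, Fzd7 at 2.01 and Rhou at 2.05, and just outside were Tecpr1 at 1.98, Agrn at 1.97 and Tpd52l1 at 1.96. Just inside the control level of 3 CPM were Tubb3 at 3.00 CPM, Irgm2 at 3.05 CPM and Clec2d at 3.07 CPM, and just outside, with ratios of at least 2, were Enho at 2.99 CPM and Il17rc at 2.94 CPM.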

How the data were processed

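RNA from 7 libraries of MS-1 cells was analysed, 4 with LPL overexpression and 3 wild-type controls. The authors deposited read counts per gene for both orientations together and for each one, per the file headers, and TPM values for the reverse orientation. STAR and the mm10 build are named in the submitters' processing notes, while versions and other settings are not given there. Reverse-orientation counts, 97.0% to 97.1% of oriented reads, were used, since the kit marks strand.

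CPM was computed from these counts without further scaling. Genes were tested with edgeR 4.0.16 (quasi-likelihood test, TMM factors, filterByExpr, all 7 libraries, R 4.3.3) with Benjamini-Hochberg adjustment over all 13639 genes kept. DESeq2 1.42.0 and limma 3.58.1 on log2(TPM + 0.5) were alternatives. The edgeR script was tested on simulated data. Since no label ties the libraries to separate cultures, the spread behind each p-value may be technical. A library stood apart when its gap to the nearest other, over the range of the group, passed Dixon's critical value of 0.829.

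The 42 genes, their roles and the 22 gene lists were chosen with earlier results of these data known. Every one of the 42 is named. Values per library are given for the 20 largest ratios, the 8 highest levels with LPL overexpression, list members and genes that leave the set when a library that stands apart is left out. In the lists that hold any of the 42 genes, other genes given with values are up to 3 per list with the lowest adjusted p. Socs3 was added for its resemblance to Irf1. Exon lengths and positions are those the authors deposited with the counts, and gene types are from GENCODE vM21. Promoter windows are from RefSeq (GRCm38.p6), and 9 of the 42 genes, Tbx2 among them, have none.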

Additional observations from a re-analysis of the deposited data

Results flagged for a closer look

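In 7 of the 42 genes 1 of the 4 LPL overexpression libraries stood apart from the other 3, by a gap larger than Dixon's 95% critical value. Chance marks about 1 in 20 groups in this way. Library 4 was the high one for Irf1, at 289 CPM with 19.4 to 22.2 CPM in the other 3 and 21.5 to 22.1 CPM in controls. It was also the high one for Irgm2, at 18.01 CPM with 4.18 to 4.98 CPM in the other 3 and 2.95 to 3.14 CPM in controls. For Clec2d it was at 11.5 CPM, with 4.96 to 5.62 CPM in the other 3 and 2.85 to 3.49 CPM in controls. Library 2 was the low one for Rab27a at 20.5 CPM, for Plagl1 at 38.3 CPM and for Zfp518b at 9.24 CPM. Library 1 was the low one for Mgat4a, at 15.7 CPM. In these 4 genes the low library was still above every control.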

How the results depend on the processing

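The number of genes that met the rule moved mostly with its thresholds. It was 18 with a ratio of at least 2.5 and 68 with a control level of at least 2 CPM, against 42, and 63 with a ratio of at least 1.8, 32 with a control level of at least 5 CPM and 38 with group medians. Other scalings gave 40 genes with TMM (39 shared with the 42), 41 with DESeq2 size factors, 45 with both orientations and 43 on TPM (29 shared). Leaving out 1 library gave 36 to 46 genes, a median ratio of 2.25 to 2.38 and 27 to 32 genes with each LPL overexpression library at least 2 times the control mean. Irf1 had a log2 ratio of -0.0680 without LPL overexpression library 4, a reversal, and of up to 2.34 without 1 of the others; Chrdl1, Clec2d, Fzd7, Irgm2 and Slfn2 also left the set without library 4. Of 462 log2 ratios of single genes under alternatives, 418 stayed within the spread between libraries and 43 moved beyond it. The edgeR call count was 5888, and 5155 to 5716 when 1 library was left out, 5842 with no filter, 4850 with DESeq2 and 5386 with limma on TPM, of which 61.3% were higher (50.7% with edgeR, 59.2% with upper-quartile factors). The labels' shared replicate numbers did not pair the libraries, with correlations of same-numbered deviations of -0.019, -0.039 and 0.019. A replicate block gave 5794 calls, with 41 of the 42 genes called higher and Irf1 not. No control has the number 4, so LPL overexpression library 4 is alone in its block and adds nothing to that contrast. Control levels near 3 CPM rested on 71 or more reads per library, which limits their precision. Where values changed with a setting, the cause was not tested.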
